A study of Homo sapiens with 6 samples.

Results

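Aminoacyl-tRNA synthetases are the enzymes that attach each amino acid to its tRNA, the step that sets the meaning of the genetic code. The 38 genes described here are 19 genes of cytosolic synthetases, 16 of mitochondrial synthetases and 3 of non-enzyme scaffold proteins. They were chosen by name and sorted by the final digit of the symbol (1 for cytosolic, 2 for mitochondrial), with FARSA and FARSB added to the cytosolic set and AIMP1, AIMP2 and EEF1E1 kept apart as scaffold. All 38 were among the 11363 genes in the table.

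RNA was sequenced from NOMO-1, an established monocytic cell line from a human acute myeloid leukaemia, with a KMT2A-MLLT3 fusion gene. The 2 groups were parental cells (genotype WT, 3 libraries) and cells with genotype MSLN-KO (3 libraries), with no treatment or time named for either. MSLN encodes mesothelin, a surface glycoprotein. The labels do not say how the knockout was made, whether its cells are 1 clone, or whether replicates were separate cultures, so each p-value reflects the spread among these libraries alone, and that spread may be technical. The table gives no read counts. If its values were made from whole reads, the libraries held 23665824 to 30804446 reads in the listed genes. MSLN itself stood at 153.2, 122.9 and 105.9 CPM (read counts scaled to library size) in the WT libraries and at 45.7, 46.9 and 45.3 CPM in the MSLN-KO libraries. Every MSLN-KO library was below every WT library, and the mean was 2.77-fold lower, so MSLN transcript remained; values per gene do not show which part of it. Of 10 myeloid markers, 10 were listed, with a summed level of 16126 to 16747 CPM in WT against 7572 to 8017 CPM in MSLN-KO. Listed markers of other cell types were NKG7 among 4 of T and NK cells, KRT18 among 4 of epithelium, PECAM1 among 3 of stroma and endothelium, and 0 of 3 each for B and erythroid cells. In WT, NKG7 stood at 37.15 to 40.86 CPM, KRT18 at 7.97 to 9.71 and PECAM1 at 496.5 to 533.3. In MSLN-KO the ranges were 29.28 to 34.76, 7.07 to 9.05 and 379 to 387 CPM. A listed marker alone does not show that cells of that type were present. In bulk RNA, fewer cells of a type and less RNA per cell cannot be told apart.

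Human cells keep separate sets of synthetases for the cytosol and for the mitochondrion, all encoded in the nucleus. In human cells GARS1 and KARS1 each serve both compartments from a single gene, and EPRS1 joins the enzymes for glutamate and proline in a single protein. Several cytosolic enzymes sit in a large multi-synthetase complex held by the scaffold proteins AIMP1, AIMP2 and EEF1E1. When amino acids run short, uncharged tRNA activates the kinase GCN2, and translation of the transcription factor ATF4 increases. ATF4 binds composite C/EBP-ATF elements and is known to raise many cytosolic synthetase genes together with amino acid transporters and biosynthetic enzymes.

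Promoters of the synthetases were read for such an element, because the cytosolic genes below moved by very different amounts. The motif TGATGNAA was searched on both strands in RefSeq windows (GRCh38.p14) from 250 bases before to 50 bases after each start; no other motif was searched. It was found in 7 of 16 cytosolic genes with a window, 1 of 14 mitochondrial genes (YARS2) and 0 of 3 scaffold genes, against 2.54% of the 8985 genes of the expression table that have a window. LARS1, VARS1, YARS1, AARS2 and VARS2 had no window. The 5 cytosolic genes with the largest change among those whose window held it are shown 5′ to 3′ on the strand of the gene, with the motif in capitals. Each line runs from 40 bases before the motif towards the start and stops at the start, 40 bases past the motif, or at the end of a motif that crosses the start.
AARS1 (alanine; chr16:70289646-70289733, minus strand): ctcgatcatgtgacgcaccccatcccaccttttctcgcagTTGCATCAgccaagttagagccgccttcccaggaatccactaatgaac
MARS1 (methionine; chr12:57488024-57488071, plus strand): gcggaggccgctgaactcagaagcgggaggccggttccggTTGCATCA
GARS1 (glycine; chr7:30594805-30594877, plus strand): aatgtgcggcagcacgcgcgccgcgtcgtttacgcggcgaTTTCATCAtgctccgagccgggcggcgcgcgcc
CARS1 (cysteine; chr11:3057418-3057465, minus strand): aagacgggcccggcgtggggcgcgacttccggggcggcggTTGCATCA
IARS1 (isoleucine; chr9:92293698-92293750, minus strand): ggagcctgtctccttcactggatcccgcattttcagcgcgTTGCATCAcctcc

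In all 5 the motif lay on the strand opposite to transcription, and 4 of the 5 carried the same 8 letters. Its first base lay 187 bases before the start in AARS1, 33 in GARS1, 13 in IARS1, 4 in MARS1 and 2 in CARS1. In TARS1 and NARS1 it began 3 and 15 bases past the start. GARS1, CARS1 and TARS1 each had another window that lacked the motif. Counted by window, 7 of 21 cytosolic windows held it, against 1.89% of 13086 windows of genes in the expression table. A match is a description of letters and shows no binding, and a window without a match says only that these letters are not in it.

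The cytosolic synthetases were mostly higher in MSLN-KO, and the mitochondrial ones were not. Of 19 cytosolic genes, 13 rose, 1 fell and 5 were not called, with a median log2 change of 0.74. Of 16 mitochondrial genes, 2 rose, 4 fell and 10 were not called, with a median of -0.09. A gene was called at a limma adjusted p under 0.05, and changes are on the log2(CPM + 1) scale. Of all 11363 genes, 45.7% were called (22.4% higher and 23.3% lower), with a median change of 0.01. All MSLN-KO libraries were above all WT libraries in 14 cytosolic and 2 mitochondrial genes (26.6% of all genes), and below them in 2 and 6 (28.1% of all genes, with 54.7% not overlapping in either direction). A log2 change of at least 0.5 was seen in 11 of 19 cytosolic genes, 0 of 16 mitochondrial genes, 0 of 3 scaffold genes and 6.09% of all genes. Summed over the 19 cytosolic genes, the level was 2976, 2791 and 2715 CPM in the WT libraries and 5015, 5217 and 5170 CPM in the MSLN-KO libraries. The mitochondrial sum was 520.6, 510.2 and 525.6 CPM in WT against 466.9, 480.0 and 472.0 CPM in MSLN-KO. No member lies on chromosome 15, where 308 of 371 genes fell.

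**Figure D1:**
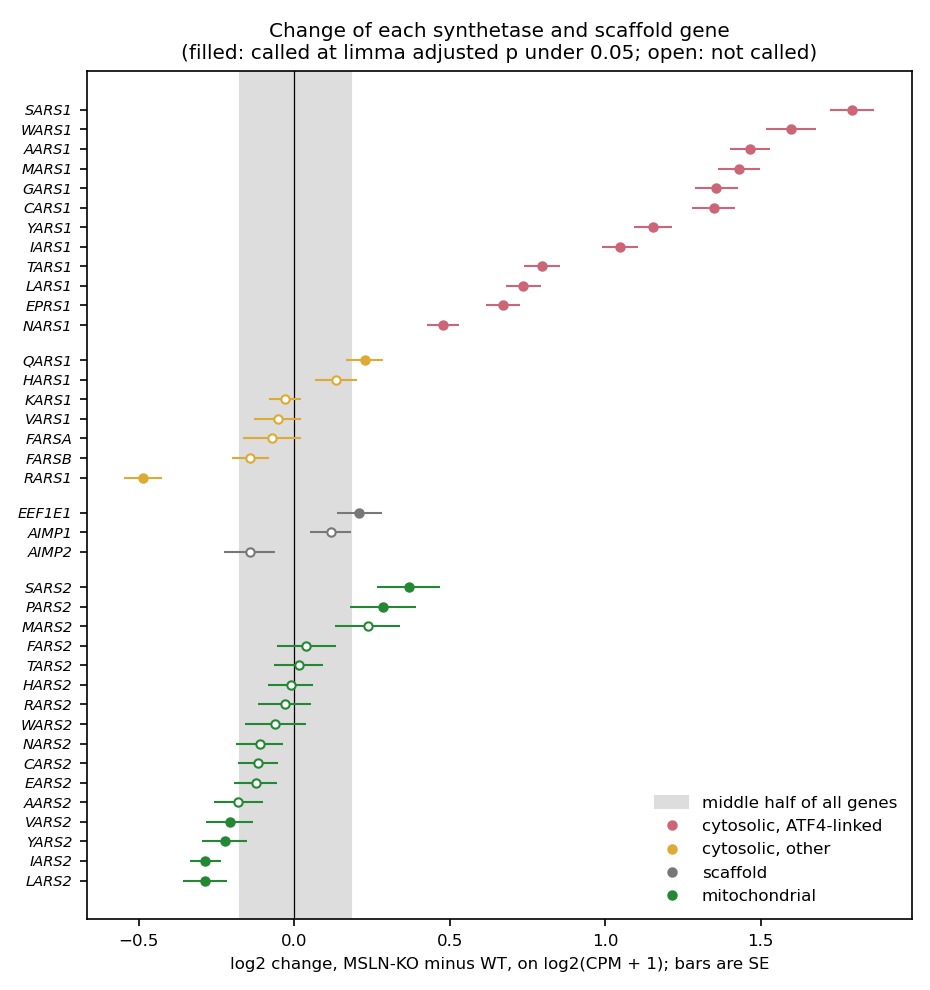
Log2 change (MSLN-KO minus WT, on log2(CPM + 1), x axis) of each of the 38 genes, grouped by compartment and role, with bars for the SE. The grey band marks the quartiles of all genes (-0.17 to 0.18); the 12 cytosolic genes linked to ATF4 lie to its right, from 0.48 to 1.79, and the mitochondrial genes lie between -0.29 and 0.37.

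The cytosolic genes were also read by their known link to ATF4. A list of 12 that general knowledge of the amino acid response ties to ATF4 (AARS1, CARS1, EPRS1, GARS1, IARS1, LARS1, MARS1, NARS1, SARS1, TARS1, WARS1 and YARS1) rose in 12 of 12 cases, with changes from 0.48 to 1.79 and a median of 1.25. Of the other 7, QARS1 rose, RARS1 fell and 5 were not called, with changes from -0.49 to 0.23 and a median of -0.05. The list was drawn up with earlier results of these data known, so its count is not independent evidence. The motif shown above was present in 7 of the 10 linked genes with a window and in 0 of the 6 others. This contrast uses the same list, so it is not independent evidence either, and a role of ATF4 was not tested. It was absent from the windows of SARS1 and WARS1, the genes with the largest rises.

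SARS1, the seryl-tRNA synthetase gene (chromosome 1, 109213918 to 109238169), had the largest rise. It stood at 86.9, 77.9 and 69.3 CPM in WT and at 265.6, 278.0 and 272.2 CPM in MSLN-KO, a 3.49-fold rise (log2 change 1.79, SE 0.07, limma adjusted p = 7.2e-10). The lowest MSLN-KO library lay far above the highest WT library. Only 0.86% of all genes had a larger log2 change.

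WARS1, the tryptophanyl enzyme, which interferon also induces in many cells, stood at 198.6, 169.0 and 152.6 CPM in WT and at 513.2, 544.0 and 515.0 CPM in MSLN-KO. AARS1, the alanyl enzyme, stood at 202.4, 181.7 and 172.3 CPM in WT and at 501.1, 538.4 and 501.5 CPM in MSLN-KO. Both rose by near 3-fold (3.02-fold and 2.77-fold), with no overlap of groups. In both, the highest library was a larger multiple of the lowest within WT than within MSLN-KO.

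MARS1, the methionyl enzyme of the multi-synthetase complex, stood at 99.2, 84.4 and 83.2 CPM in WT and at 239.1, 246.8 and 236.2 CPM in MSLN-KO. GARS1, the glycyl enzyme of cytosol and mitochondrion, stood at 114.3, 101.5 and 94.3 CPM in WT and at 252.3, 267.8 and 277.0 CPM in MSLN-KO. CARS1, the cysteinyl enzyme, stood at 45.9, 45.4 and 38.9 CPM in WT and at 109.8, 115.3 and 110.6 CPM in MSLN-KO. These 3 rose 2.71-fold, 2.57-fold and 2.58-fold, and the groups of each were apart. MARS1 shares 982 bases with DDIT3, a stress transcription factor gene on the other strand that rose by 1.57 (12.12 ± 0.0824 to 38.05 ± 3.09 CPM, mean ± SD, n = 3 each). It also shares 13370 bases with ARHGAP9, a gene on the other strand that rose by 0.37 (limma adjusted p = 0.0012). These lengths are overlaps of whole gene spans, introns included, so the shared bases need not be exonic. The libraries were stranded, but the strand setting of the counting is not given in the sources used here. Whether reads of those stretches were told apart is therefore not known. GARS1 shares 129 bases with GARS1-DT on the other strand, which rose by 0.35.

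YARS1, the tyrosyl enzyme, stood at 130.8, 119.0 and 112.3 CPM in WT and at 260.7, 275.2 and 271.8 CPM in MSLN-KO, a 2.23-fold rise. IARS1, the isoleucyl enzyme of the complex, stood at 304.0, 286.7 and 270.0 CPM in WT and at 570.3, 598.0 and 612.5 CPM in MSLN-KO, a 2.07-fold rise. Both had groups well apart, and with these 2 the genes with a log2 change of at least 1 numbered 8, against 1.79% of all genes.

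Smaller rises came from 4 more of the 12. TARS1, the threonyl enzyme, stood at 345.8, 337.9 and 312.0 CPM in WT and at 558.8, 571.6 and 602.3 CPM in MSLN-KO. LARS1, the leucyl enzyme, which also takes part in leucine sensing for mTORC1, stood at 211.0, 213.0 and 194.1 CPM in WT and at 335.7, 335.5 and 360.8 CPM in MSLN-KO. In both, every MSLN-KO library was above every WT library, and the rises were 1.74-fold and 1.67-fold. EPRS1, the fused glutamyl and prolyl enzyme, stood at 243.8, 247.7 and 227.5 CPM in WT and at 369.4, 381.6 and 395.9 CPM in MSLN-KO, a 1.59-fold rise. NARS1, the asparaginyl enzyme, stood at 199.1, 192.7 and 195.8 CPM in WT and at 265.3, 270.8 and 284.9 CPM in MSLN-KO, a 1.40-fold rise. NARS1 had the smallest rise of the 12 and the narrowest WT range. The limma adjusted p of these 12 genes was at most 7.9e-06, and at most 0.000192 over all alternatives.

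**Figure D2:**
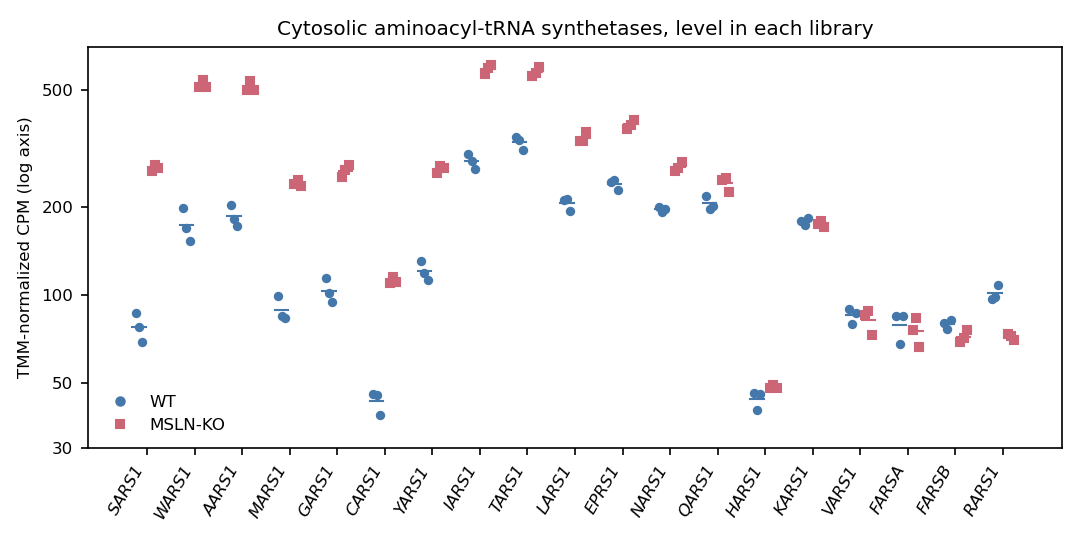
TMM-normalized CPM (log axis) of the 19 cytosolic synthetases in each WT (circles) and MSLN-KO (squares) library, ordered by change, with lines for group means. The groups do not overlap for the 14 genes on the left (SARS1 to HARS1, MSLN-KO above), overlap for KARS1, VARS1 and FARSA, and do not overlap, with MSLN-KO below, for FARSB and RARS1.

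Of the remaining 7 cytosolic genes, 1 rose, 1 fell and 5 were not called. QARS1, the glutaminyl enzyme, stood at 218.1, 196.6 and 201.7 CPM in WT and at 247.2, 250.1 and 224.5 CPM in MSLN-KO, a 1.17-fold rise (log2 change 0.23, SE 0.06, limma adjusted p = 0.0085). RARS1, the arginyl enzyme, was the only cytosolic gene called lower: 96.7, 98.7 and 108.5 CPM in WT against 73.8, 72.2 and 69.9 CPM in MSLN-KO. It was 1.41-fold lower (log2 change -0.49, SE 0.06, limma adjusted p = 2.6e-05), with all MSLN-KO libraries below all WT libraries.

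KARS1, the lysyl enzyme of cytosol and mitochondrion, stood at 178.8, 173.9 and 183.2 CPM in WT and at 174.3, 179.6 and 171.1 CPM in MSLN-KO. Its groups overlapped, with a log2 change of -0.03 (SE 0.05). VARS1, the valyl enzyme, was at -0.05 (SE 0.08), and HARS1, the histidyl enzyme, at 0.13 (SE 0.07), which was not called although its groups were apart. FARSA and FARSB, the alpha and beta subunits of the phenylalanyl enzyme, were at -0.07 (SE 0.09) and -0.14 (SE 0.06). FARSB was called lower without WT replicate 2 (adjusted p = 0.042) and without MSLN-KO replicate 3 (0.028).

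Members of the multi-synthetase complex did not move as a unit. Of its 7 enzymes listed here, MARS1, IARS1, LARS1, EPRS1 and QARS1 rose, RARS1 fell and KARS1 was not called (median 0.67). Among the 12 enzymes outside it, 8 rose and 4 were not called (median 0.98). AIMP1, the scaffold that also binds tRNA, stood at 76.2, 75.3 and 82.4 CPM in WT and at 81.9, 80.3 and 91.8 CPM in MSLN-KO, with overlapping groups (log2 change 0.12, SE 0.07). AIMP2, the scaffold around which the complex is built, was at 25.4 ± 1.4 CPM in WT against 22.9 ± 2.2 CPM in MSLN-KO (log2 change -0.14, SE 0.08). On the other strand AIMP1 overlaps TBCK (5952 bases), which fell by 0.31, and AIMP2 overlaps EIF2AK1 (1591 bases), which fell by 0.24. Whether reads of these overlaps were told apart is not known. EEF1E1, also called AIMP3, stood at 34.9, 32.6 and 35.3 CPM in WT and at 38.4, 37.7 and 43.4 CPM in MSLN-KO. It was called higher (log2 change 0.21, limma adjusted p = 0.030), a call lost when any library but MSLN-KO replicate 2 was left out (adjusted p from 0.0504 to 0.104). None of the 3 scaffold genes was called lower by limma, and 0 were lower at an unadjusted p under 0.05.

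By catalytic fold, 7 of 9 cytosolic class I enzymes rose and 1 fell, and 5 of 9 cytosolic class II enzymes rose with 4 not called. EPRS1, which holds a domain of each class, is counted in neither. Among mitochondrial enzymes, class I had 4 falls in 9 and class II had 2 rises in 7. Of all genes, 22.4% were called higher and 23.3% lower. The class II rises, in SARS2 and PARS2, and the falls of YARS2 and VARS2 were lost when some single libraries were left out. No class pattern is therefore read from the mitochondrial counts.

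Among the mitochondrial enzymes, the falls were small. LARS2, the leucyl enzyme, stood at 40.8, 37.1 and 42.7 CPM in WT and at 31.1, 32.8 and 34.4 CPM in MSLN-KO, a 1.23-fold fall (log2 change -0.29, SE 0.07, limma adjusted p = 0.0057). IARS2, the isoleucyl enzyme, stood at 156.8, 158.1 and 159.2 CPM in WT and at 126.4, 132.5 and 129.2 CPM in MSLN-KO, a 1.22-fold fall (limma adjusted p = 0.00048). In both genes every MSLN-KO library was below every WT library, and both calls held under every alternative. YARS2, the tyrosyl enzyme, and VARS2, the valyl enzyme, fell 1.18-fold and 1.16-fold (limma adjusted p = 0.024 and 0.039). YARS2 was not called without WT replicate 3 (adjusted p = 0.099), nor without replicate 1 (0.071) or 2 (0.063) of MSLN-KO. VARS2 was not called without replicate 1 (0.130) or 3 (0.058) of WT, nor without replicate 1 (0.151) or 3 (0.072) of MSLN-KO. YARS2 overlaps DNM1L on the other strand, which fell by 0.15, and VARS2 overlaps GTF2H4 on its own strand.

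SARS2, the seryl enzyme, and PARS2, the prolyl enzyme, were the mitochondrial genes called higher. SARS2 stood at 16.8, 14.2 and 15.5 CPM in WT and at 22.0, 21.9 and 17.2 CPM in MSLN-KO, a 1.31-fold rise (log2 change 0.37, SE 0.10, limma adjusted p = 0.0099). Replicate 3 of MSLN-KO lay close to the WT range, and without MSLN-KO replicate 1 it was not called (adjusted p = 0.055). PARS2 stood at 7.06, 6.42 and 7.33 CPM in WT and at 9.90, 8.44 and 7.76 CPM in MSLN-KO (log2 change 0.29, limma adjusted p = 0.043). PARS2 was not called when any library but MSLN-KO replicate 3 was left out (adjusted p from 0.062 to 0.202).

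The other 10 mitochondrial genes were not called, with changes from -0.18 (AARS2, alanyl) to 0.24 (MARS2, methionyl). The groups of CARS2 (cysteinyl) and EARS2 (glutamyl) were apart, with MSLN-KO lower. Those of AARS2, NARS2, WARS2, RARS2, HARS2, TARS2, FARS2 and MARS2 overlapped. MARS2 was called higher without WT replicate 1 (log2 change 0.35, adjusted p = 0.014), and AARS2 lower without WT replicate 2 (-0.23, adjusted p = 0.035).

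**Figure D3:**
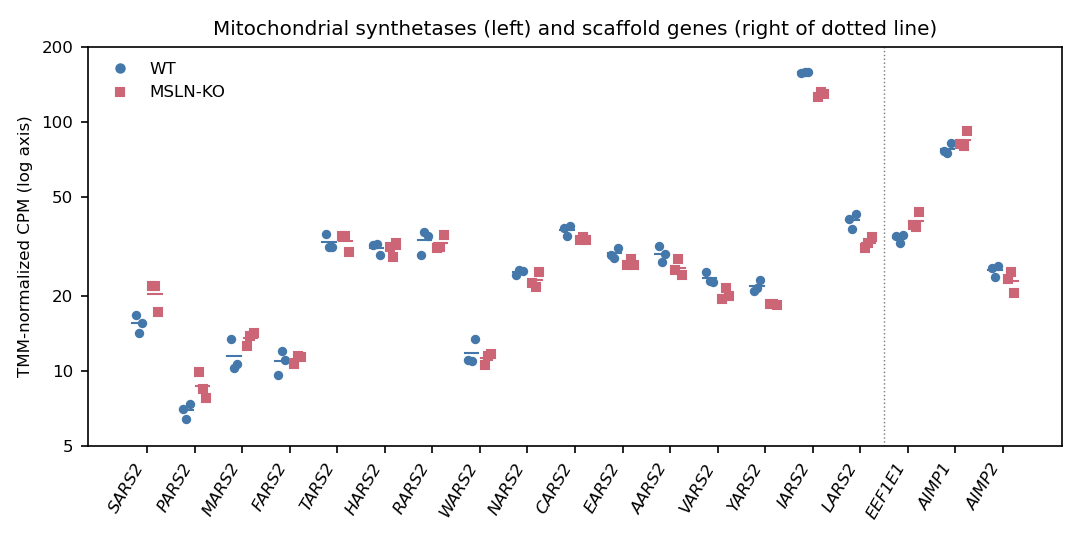
TMM-normalized CPM (log axis) of the 16 mitochondrial synthetases and, right of the dotted line, the 3 scaffold genes in each WT (circles) and MSLN-KO (squares) library, with lines for group means. IARS2 stands alone above 100 CPM in every library, and most groups lie within a narrow range of each other.

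The balance of cytosolic to mitochondrial transcript was read for each amino acid that has a listed gene of both kinds. The log2 ratio of the cytosolic to the mitochondrial gene was taken in each library for 17 pairs, with both phenylalanyl subunits set against FARS2 and EPRS1 against EARS2 and PARS2, so that some pairs share a gene. All MSLN-KO ratios were above all WT ratios in 12 pairs, below them in 1 pair and overlapping in 4. No share over all genes was taken for such ratios, and among single genes 54.7% did not overlap. The ratios restate the changes of the single genes given above and are not further evidence. With 3 libraries against 3, the smallest two-sided exact permutation p is 0.1, which all 13 separated pairs reached (0.131 after Benjamini-Hochberg adjustment over the 17 pairs), so no pair could pass a threshold of 0.05. Single genes of these pairs were tested by limma above.

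The tryptophanyl and alanyl pairs differed between groups by 1.66 and 1.65, and without WT replicate 3 by 1.48 and 1.59, so their order is not settled. WARS1 over WARS2 was 4.04, 3.84 and 3.41 in WT and 5.47, 5.44 and 5.35 in MSLN-KO on the log2 scale. AARS1 over AARS2 was 2.64, 2.69 and 2.50 in WT and 4.24, 4.22 and 4.31 in MSLN-KO. For cysteine the ratio was 0.28, 0.37 and 0.03 in WT and 1.68, 1.71 and 1.69 in MSLN-KO. These ratios are not per length, so only their differences between groups are read. In the arginyl pair the difference had the opposite sign, with ratios of 1.69, 1.42 and 1.61 in WT and 1.22, 1.17 and 0.97 in MSLN-KO. The valyl, histidyl and both phenylalanyl pairs overlapped between groups.

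**Figure D4:**
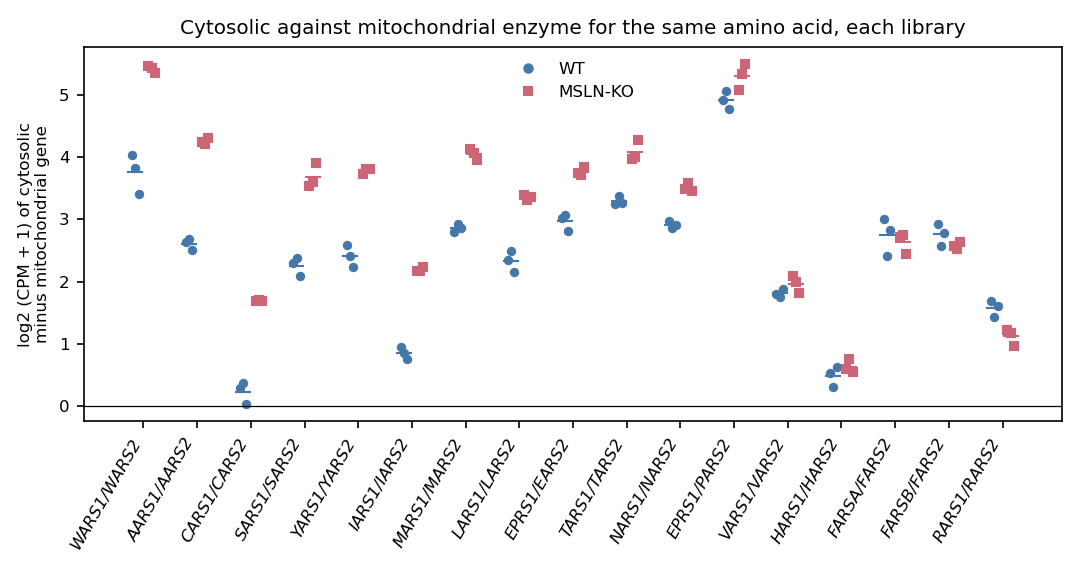
Log2 (CPM + 1) of the cytosolic gene minus that of the mitochondrial gene for the same amino acid in each WT (circles) and MSLN-KO (squares) library, with lines for group means, ordered by the difference between groups. The MSLN-KO points are higher in the 12 pairs on the left, from WARS1/WARS2 to EPRS1/PARS2, and lower in RARS1/RARS2.

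Levels of different genes were compared per kilobase of the longest coding transcript in the GENCODE basic set, since long transcripts give more reads; which transcript is in use was not measured. In WT the highest were TARS1 at 76.9 ± 4.1, KARS1 at 73.8 ± 1.9 and QARS1 at 72.7 ± 4.0 CPM per kilobase (mean ± SD, n = 3). The lowest were WARS2 at 4.21 ± 0.51, MARS2 at 3.79 ± 0.56 and PARS2 at 2.96 ± 0.20 CPM per kilobase. Neighbours in this order had overlapping WT ranges in 25 of 37 cases, among them TARS1 with KARS1 and KARS1 with QARS1. IARS2, at 44.4 ± 0.35 CPM per kilobase, was the only mitochondrial gene above CARS2 at 19.6 ± 0.88.

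In MSLN-KO the order was different at the top. WARS1 led at 169.5 ± 5.6 CPM per kilobase, before AARS1 at 147.7 ± 6.2 and SARS1 at 144.5 ± 3.3. SARS1 moved from place 12 of the 38 to place 3, and KARS1, whose groups overlapped, from place 2 to place 12.

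Genes beside the synthetases gave a local comparison. EPRS1 and IARS2 lie 47.4 kb apart on chromosome 1 (219968601 to 220046658 and 220094102 to 220148041, GENCODE release 29 on GRCh38) and changed in opposite directions, by 0.67 and -0.29. AARS1 and DDX19B, an RNA helicase gene, start 120 bases apart on opposite strands, and DDX19B stood at 44.5 ± 1.0 CPM in WT against 44.3 ± 0.89 CPM in MSLN-KO while AARS1 rose. WDR25 starts within 387 bases of WARS1 on the other strand and shares 388 bases with it, so their reads may not be fully separated. It stood at 4.58 ± 0.19 CPM in WT and at 6.71 ± 0.66 CPM in MSLN-KO. Its WT values lay below 4.9 CPM, so it was listed through MSLN-KO alone and had to be higher there. Its change of 0.46 is given as a value only. HARS1 and HARS2 overlap head to head by 437 bases, so that their reads may not be fully separated, and neither was called. Over the listed genes within 2 Mb of each of the 12 linked genes, the median change ranged from -0.23 around TARS1 to 0.07 around IARS1.

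Further genes of tRNA charging were read from lists that did not include the members. Of 12 listed partners of cytosolic charging and delivery, 5 rose, 3 fell and 4 were not called (median 0.09). Over all genes 22.4% were called higher and 23.3% lower, so the falls are near the share of all genes. XPOT, the exporter of tRNA from the nucleus, stood at 235.3, 231.8 and 208.6 CPM in WT and at 475.5, 497.0 and 500.8 CPM in MSLN-KO, a 2.18-fold rise with groups apart. EEF1A1 and EEF1D, of the elongation factor that brings charged tRNA to the ribosome, rose by 0.35 and 0.25. TARS3, a threonyl-tRNA synthetase gene that is related to TARS1, fell by 0.33, the editing deacylase gene DTD2 fell by 0.24, and the peptidyl-tRNA hydrolase gene PTRH2 fell by 0.20. TARS3 lies on chromosome 15, where the median change was -0.57.

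Of 11 listed partners in the mitochondrion, 1 rose, 3 fell, MTFMT among them, and 7 were not called (median -0.01). MTFMT, which formylates the initiator methionyl-tRNA, stood at 7.14, 7.78 and 8.09 CPM in WT and at 2.91, 4.03 and 3.42 CPM in MSLN-KO, and lies on chromosome 15 too. All its MSLN-KO values were below 4.9 CPM, the level that every listed gene reached in at least 3 libraries, so it was listed through WT alone and had to be lower in MSLN-KO. Without it, 1 of 10 partners rose, 2 fell and 7 were not called (median 0.0016). The shares over all genes were 22.4% called higher and 23.3% lower. GATB, a subunit of the amidotransferase that makes mitochondrial glutaminyl-tRNA, fell by 0.34. PPA2, the pyrophosphatase that removes the by-product of charging, fell by 0.26, and the initiation factor gene MTIF2 rose by 0.16.

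Of 35 listed genes of tRNA processing and modification, 8 rose, 5 fell and 22 were not called (median 0.04). The share called was 37.1%, against 45.7% of all genes (22.4% higher and 23.3% lower), so these counts are not read as a result about the list. TSEN15, a subunit of the tRNA splicing endonuclease, rose 1.71-fold, and the pseudouridine synthase genes PUS1 and PUS7 rose 1.62-fold and 1.43-fold. HSD17B10, a subunit of mitochondrial RNase P, fell by 0.44, POP1, of nuclear RNase P, fell by 0.33, and NSUN2, a tRNA cytosine methyltransferase, fell by 0.28. Of 5 listed genes for making and inserting selenocysteine, limma called 0, and 2 were higher at an unadjusted p under 0.05 (median 0.13).

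ATF4 transcript stood at 200.9, 175.5 and 155.9 CPM in WT and at 428.8, 432.6 and 431.9 CPM in MSLN-KO, a 2.43-fold rise. In a list of 19 listed genes of the amino acid stress response, with ATF4, 3 (ATF5, CHAC1 and STC2) reached 4.9 CPM in all libraries of MSLN-KO but not of WT, so they were listed through MSLN-KO and their rise is not counted. The other 16 reached it in every library, and 16 rose, by a median of 1.38, against 22.4% of all genes called higher. This list too was chosen with earlier results of these data known, so the count is not independent evidence. Log2 changes were 2.70 in ASNS, which makes asparagine, and 2.47 in PHGDH, which starts serine synthesis. ATF5 and STC2, with changes of 2.71 and 2.25, are given as values only. All 38 members were above that level in all 6 libraries.

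The WT libraries differed among themselves in many of these genes. WT replicate 1 was the highest and WT replicate 3 the lowest WT library in 9 of the 12 genes linked to ATF4, in 0 of the other 7 cytosolic genes, in 2 of 16 mitochondrial genes and in 12.1% of all genes. The same order held in 11 of the 19 amino acid stress genes, ATF4 among them, and in MSLN itself. The part of this difference in the results was not tested. Within WT the highest library was 1.17 times the lowest in the median linked gene and 1.12 times in the median gene of all, and within MSLN-KO 1.07 and 1.11 times. Without WT replicate 3, or without any other single library, 13 cytosolic genes were called higher.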

How the data were processed

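The submitters' processing notes name STAR, featureCounts, edgeR and GRCh38/hg38. Versions, annotation release and strand setting are not given in the sources read here. Per the labels' protocols, libraries were stranded total RNA after removal of ribosomal RNA. The authors deposited CPM after TMM normalization, 1 column per library. In every column 100% of values were whole multiples of 1 step (within 0.01). Read numbers take 1 step as 1 read and hold only if the authors started from whole reads. Low values alone did not establish this, so the planned count test was not run. Each listed gene reached at least 4.9 CPM in 3 libraries, so lower genes were not analysed here. Symbols were matched for 11354 of 11363 genes.

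MSLN-KO was compared with WT by limma 3.58.1 in R 4.3.3 (lmFit, eBayes with trend) on log2(CPM + 1) with all 6 libraries and no covariate, with Benjamini-Hochberg adjustment over all genes, two-sided. The minimum mean of 0.5 CPM removed no gene. Libraries were simulated from the WT means (11363 genes, 50 changed per fold size). In these the fit recovered 54% of genes changed 1.25-fold, 98% at 1.5-fold and 100% at 2-fold and 4-fold. Of 184 calls, 8 were false. Every simulated gene had the same spread beyond counting noise, the WT median of 6.1%, and few genes were changed, while 45.7% were called in the data. Recovery in the data may therefore differ. Pair ratios used an exact permutation test (scipy 1.17.1). No pair of replicates looked like 1 library deposited more than once (chi-square of read counts over degrees of freedom, 2.71 to 14.8).

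The members and lists were chosen with earlier results of these data known. Named were all members, MSLN, ATF4 with the 4 largest changes of its list, and up to 3 called genes per direction of each other list; the local neighbours were named after their values were seen. Planned proteins were not printed.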

Additional observations from a re-analysis of the deposited data

How the results depend on the processing

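The 13 cytosolic genes called higher remained 13 under all 14 alternatives, and the median change of the cytosolic genes lay between 0.69 and 0.77. Of 21 called members, 16 kept their call under all 14, and of 17 not called, 14 stayed so; no called member changed sign. With each library rescaled to the same total, which moved the median of all genes to 0.04, calls over all genes went from 2545 higher and 2652 lower to 2942 and 2278. There 3 mitochondrial genes were called higher, not 2 (MARS2 was gained, adjusted p = 0.045), and 2 were called lower, not 4 (VARS2 and YARS2 were lost, adjusted p = 0.071 and 0.051). With a replicate block, 1 mitochondrial gene was called higher, not 2 (PARS2 was lost, adjusted p = 0.053, as was VARS2 among those lower, 0.061). Replicate numbers are not stated to pair the libraries. Deviations of same-numbered libraries from their group means correlated at 0.19, -0.17 and -0.09, and WT replicate 2 correlated best with MSLN-KO replicate 3. Such deviations cancel within a group, so mixed signs are built in and this check cannot exclude pairing. Leaving out 1 library gave 1 to 2 cytosolic genes called lower, 0 to 2 mitochondrial genes higher, 2 to 5 mitochondrial genes lower, 0 to 1 scaffold genes higher, and 1 to 3 pairs with all MSLN-KO ratios lower (3 without WT replicate 2). Each of these fits leaves 2 libraries in a group; the cause of the other shifts was not tested. The count test on reads was not run. Standard errors were 0.11 for PARS2, the member with the lowest level in WT, 0.10 for MARS2 and SARS2, and 0.05 for IARS2.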

Other observations

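Outside the synthetases, the motif TGATGNAA was found in the RefSeq window of 220 genes of the expression table. In MSLN-KO, 33.2% of these rose and 25.9% fell, against 21.8% and 22.9% of 8735 genes whose windows lacked it. The median log2 change was 0.01 in each set. Among the cytosolic synthetases with a window, the 7 with the motif had changes from 0.48 to 1.47, and the 9 without it had changes from -0.49 to 1.79.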
